A study of Homo sapiens with 2 samples.

Results

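Strong peaks are the summits on chromosomes 1 to 22 with a peak score of 30 or more in a Myocardin chromatin immunoprecipitation experiment. They number 1002 of the 105637 summits in the deposited list, and 0.978% of the 102407 autosomal summits. The members were chosen by the peak score, so their scores are given as a description with no test. They were set against the 24341 autosomal summits that score from 12.16, the upper quartile of all scores, up to 30, called comparison peaks below. The cells were A549, an established human lung adenocarcinoma line, in which MYOCD was stably overexpressed from pWPI, a lentiviral vector. Both groups were that same overexpressing line, grown in DMEM with fetal bovine serum. Chromatin was precipitated with an antibody against Myocardin in 1 library and with IgG, a nonspecific antibody, in 1 library. No replicate and no library of A549 without the transgene was used here. The list carries no value for either library. The score of a summit therefore cannot be split into anti-Myocardin and IgG signal, and the sequencing depth behind it is unknown.

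Myocardin is a coactivator of smooth and cardiac muscle genes. It does not read DNA by itself but is brought to it by the serum response factor, which recognises the CArG box in the promoters of contractile and cytoskeletal genes. In sequencing of precipitated chromatin, a summit marks the point where reads pile up most. The unit of the score is not named, so strong here means only a high score within this list. The summits were therefore described by where they lie, how they group, and how they sit relative to chromosome ends and to long stretches without any summit. No annotation or sequence of GRCh37, the assembly the positions match, was used here, so no summit is assigned to a gene or motif.

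Most strong peaks were only just strong. The lowest score was 30.004 and the highest 281; the median was 34.9, between quartiles of 31.9 and 42.7. A score below 35 was carried by 507 of them (50.6%), 311 reached 40, 156 reached 50, 30 reached 100 and 8 reached 200. The threshold cuts through a continuous slope of scores. The members just inside scored 30.004 and 30.0075, the summits just outside scored 29.9826 and 29.9744, and 158 summits lay within 1 score unit above the threshold against 172 within 1 unit below. Exact ties were frequent, since 310 members shared their score with another member.

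Most strong peaks stood alone, but they had another strong peak nearby more often than other summits did. Another strong peak lay within 100 kb of 33.1% of strong peaks, against 9.25% of comparison peaks and 8.25% of all autosomal peaks. When summits at most 100 kb apart were joined, the 1002 strong peaks formed 782 loci. A single strong peak made up 670 of the loci, which is 66.9% of all strong peaks (exact Clopper-Pearson 95% interval 63.9 to 69.8, counting error only). The remaining 332 strong peaks fell into 112 loci, of which 71 held 2 peaks, 24 held 3 and 13 held 5 or more. The median distance between adjacent strong summits was 0.890 Mb. Joined summits lay at a median of 21.8 kb, and of the 220 joined pairs 2 lay under 1 kb apart and 27 at 1 to 5 kb.

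Joining depends on how many summits there are to join. The comparison peaks, 24341 in number, formed 8096 loci and only 15.1% of them stood alone. The share of strong summits in the surroundings does not have this limit. Of the summits of any score within 100 kb of a strong peak, 8.36% were strong themselves, compared with 1.25% around comparison peaks and 0.917% around all autosomal peaks. The 5 loci with most members carried much of this, and without them the share was 4.76%. The values around comparison peaks and around all autosomal peaks were not recomputed without these loci. A pair of strong peaks enters the share from both sides, so no interval is given for it. More than 1 Mb from any peak-free stretch, the share was 7.35% around strong peaks and 1.06% around comparison peaks.

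**Figure D1:**
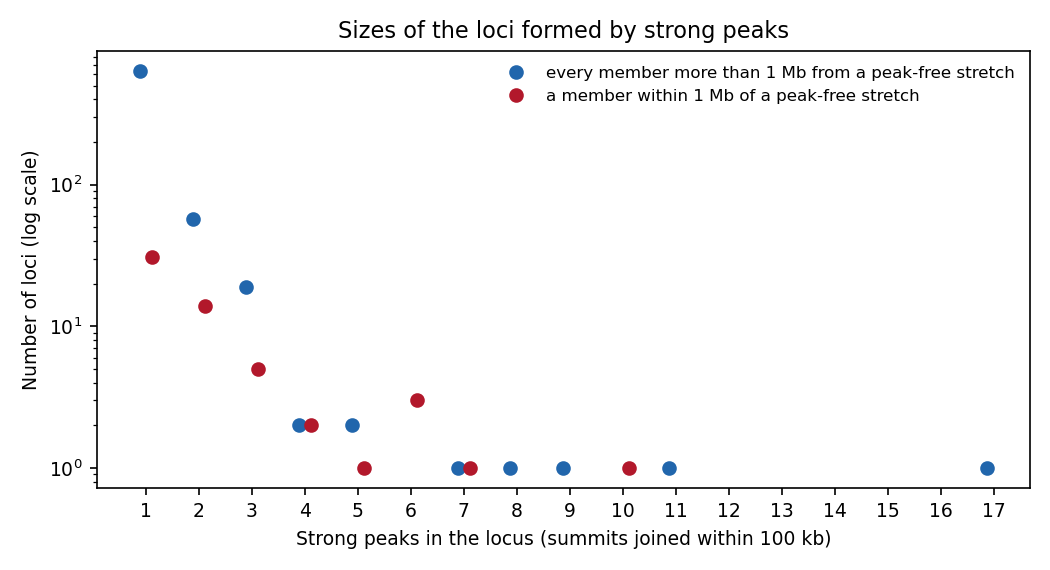
Number of loci (log scale) against the number of strong peaks in the locus, with blue points for loci more than 1 Mb from every peak-free stretch and red points for loci with a member within 1 Mb of one. Single-peak loci number 639 of 724 away from stretches and 31 of 58 beside them. Loci of 3 or more strong peaks number 28 of 724 and 13 of 58.

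The locus with most members lay on chromosome 17 and held 17 strong peaks between 39190782 and 39411900, a span of 221 kb with 30 summits of any score. Its scores stayed in a narrow range, 30.9 to 49.7 around a median of 37.4, and adjacent strong summits were 5.51 to 54.9 kb apart. No other locus held more than 11. The crowd on chromosome 17 was therefore made of many moderate summits without a dominant one, and it lay 13.9 Mb from the nearest peak-free stretch. The locus on chromosome 8 from 86727363 to 86840626 held 11 strong peaks of higher score, from 43.1 to 83.9. In the latter, 4 of the 10 distances between adjacent strong summits lay between 11 and 13 kb, namely 12.2, 11.9, 12.5 and 11.8 kb, a pattern singled out after its values were seen.

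Chromosome 9 carried a locus of 10 strong peaks from 66455776 to 66581889 and another of 8 from 68363109 to 68495650. Their scores ran from 31.4 to 78.1 and from 30.3 to 74.0. Both lay close to the peak-free stretch of chromosome 9, at 0.955 Mb and 2.86 Mb from it. The locus of 9 strong peaks on chromosome 5, from 17518840 to 17631686, lay 28.3 Mb from a stretch. Its first 4 summits, which scored 43.7, 34.0, 35.3 and 40.5, followed each other at 3447, 3453 and 3457 bp. This spacing, too, was picked after its values were seen. Over all loci of 3 or more strong peaks, 4 of 108 consecutive distances matched the one before within 5% (3.70%, interval 1.02 to 9.21). Among comparison peaks 3.04% of 11821 did (2.74 to 3.36). The 4 include matches from this chromosome 5 run. None of the chromosome 8 distances of 11 to 13 kb matched the one before within 5%, so that pattern is not counted. With so few matches, the share cannot tell whether even spacing was more frequent among strong peaks.

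**Figure D2:**
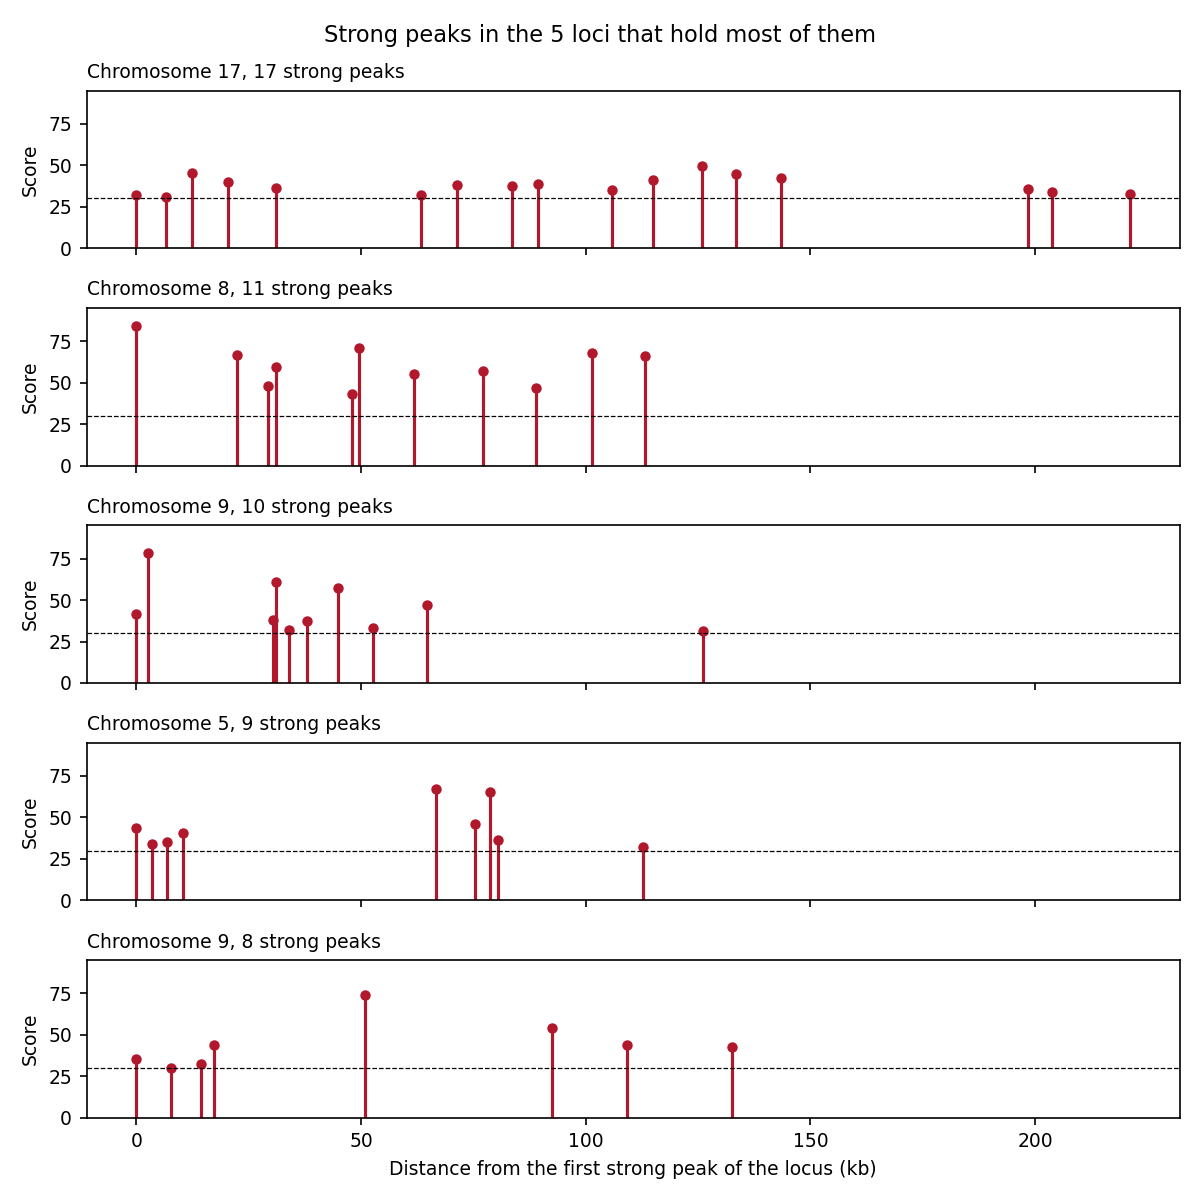
Score of each strong peak against its distance in kb from the first strong peak of the locus, for the 5 loci with most members; the dashed line marks a score of 30. The 17 summits of the chromosome 17 locus stay below 50, while the chromosome 8 locus reaches 83.9.

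Most strong peaks lay far from any peak-free stretch, but fewer than among comparison peaks. A peak-free stretch is a run of 1 Mb or more without a summit of any score. The autosomes held 24 of them, 19 between summits and 5 from a chromosome start, from 1.10 to 21.1 Mb long and 3.19 Mb at the median. Human assemblies leave sequence unresolved at centromeres and on the short arms of some chromosomes; whether a stretch here is such a gap was not tested. More than 1 Mb from a stretch lay 883 of the 1002 strong peaks (88.1%, exact interval 86.0 to 90.1), compared with 97.6% of comparison peaks (97.4 to 97.8). At more than 3 Mb the shares were 79.2% (76.6 to 81.7) and 93.4% (93.1 to 93.8), and at more than 5 Mb 75.6% and 89.9%. The median distance to a stretch was 27.6 Mb for strong peaks and 32.9 Mb for comparison peaks, and the lower quartiles were 5.44 and 14.4 Mb.

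Within 1 Mb of a stretch lay 119 strong peaks, which is 11.9% of them (9.94 to 14.0) against 1.78% of all autosomal peaks and 2.40% of comparison peaks (2.21 to 2.60). Read the other way, 6.53% of the 1821 summits in these margins were strong (5.44 to 7.77), and 0.878% of the 100586 summits elsewhere (0.821 to 0.937). The 119 peaks were spread over 27 of 42 margins, with the sequence between the pair of stretches on chromosome 2 counted as 1 margin, and at most 10 lay in any of them. Chromosomes 3, 6, 12, 13 and 18 had no strong peak in their margins. The margin between the stretches of chromosome 2 held 10.

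Strong peaks beside stretches shared their locus more often than those elsewhere. Of the 119, 31 stood alone in their locus (26.1%, interval 18.4 to 34.9), against 639 of the other 883 (72.4%, interval 69.3 to 75.3). This contrast was not particular to strong peaks. A strong peak lay within 100 kb of 45.7% of comparison peaks in the margins and of 8.36% elsewhere. The median score of the 119 was 41.6. Loci with a member within 1 Mb of a stretch numbered 58 and held 2.10 strong peaks each, while the 724 loci elsewhere held 1.22. Counted as loci, 92.6% of the strong sites lay away from stretches. Strong peaks in the margins also had more summits of any score around them, with a median of 15 within 100 kb against 10 for strong peaks elsewhere; over all autosomal summits the medians were 13 in the margins and 12 elsewhere. No other summit lay within 10 kb of 21.8% of strong peaks in the margins (14.8 to 30.4) and of 52.3% elsewhere (48.97 to 55.7). The direction was the same for comparison peaks, at 30.99% in the margins and 44.03% elsewhere. Over all autosomal summits the shares were 29.7% in the margins and 35.5% elsewhere. Binding of Myocardin and other signal cannot be told apart in the margins, since the list gives no IgG values.

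**Figure D3:**
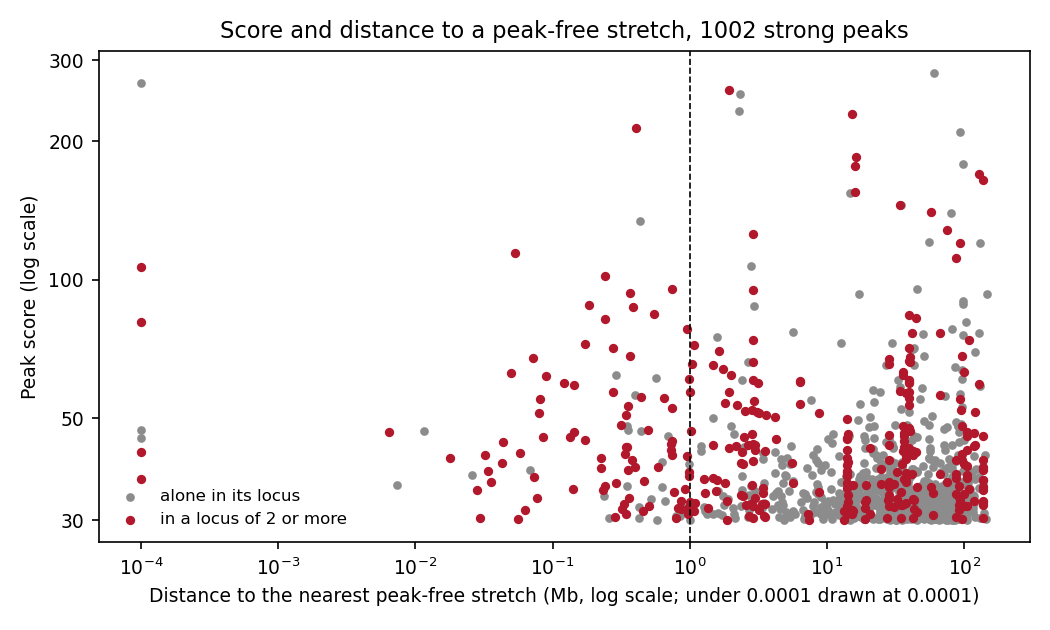
Peak score (log scale) against the distance to the nearest peak-free stretch in Mb (log scale) for the 1002 strong peaks, grey where a peak is alone in its locus and red where its locus holds 2 or more; the dashed line marks 1 Mb. Left of the line 88 of 119 points are red, and the highest score, 281, lies at 59.8 Mb.

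Strong peaks did not share 1 kind of surrounding, and they divided by score. Those from 30 to 40 were mostly solitary, with no other summit of any score within 10 kb of 394 of 691 (57.0%, interval 53.2 to 60.7). Among the 311 that scored 40 or more the share was 30.2% (25.2 to 35.7). The background is 35.4% of all autosomal peaks and 43.7% of comparison peaks (43.1 to 44.3). Along the score bands the share climbed from 36.7% at 12.16 to 15 to 59.0% at 30 to 35 (54.5 to 63.3), and stood at 29.7% at 40 to 50 (22.6 to 37.5). Just below the threshold, at 25 to 30, it was already 56.9% (54.4 to 59.5). The solitary position was therefore not particular to strong peaks. The turn thus lay inside the strong range, between 35 and 50. For all strong peaks together the share was 48.7%, a value that neither score range has.

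From 12.16 to 75, the nearness of other strong peaks and of peak-free stretches increased with the score. Another strong peak lay within 100 kb of 8.01% of peaks scoring 12.16 to 15, of 13.8% at 25 to 30, of 19.5% at 30 to 35, of 48.4% at 40 to 50 and of 65.3% at 50 to 75. The share within 1 Mb of a stretch was 1.90%, 3.71%, 6.51%, 19.4% and 20.8% in the same bands. At 100 or more it was 6 of 30 peaks (7.71% to 38.6%), an interval that includes the shares of all bands from 35 to 100.

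The outermost 5 Mb of a chromosome, measured from both ends of each autosome, held 164 strong peaks (16.4%, interval 14.1 to 18.8). The background is 14.5% of all autosomal peaks, so the strong peaks as a whole were near it, while comparison peaks were below it at 9.68% (9.31 to 10.1). The share differed within the strong range, from 10.8% at 30 to 35 (8.28 to 13.9) to 25.4% at 40 or more (20.7 to 30.6) and 12 of 30 peaks at 100 or more (22.7% to 59.4%). The last 1 Mb alone held 81 strong peaks, 8.08% (6.47 to 9.95), against 3.18% of all autosomal peaks and 2.58% of comparison peaks.

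**Figure D4:**
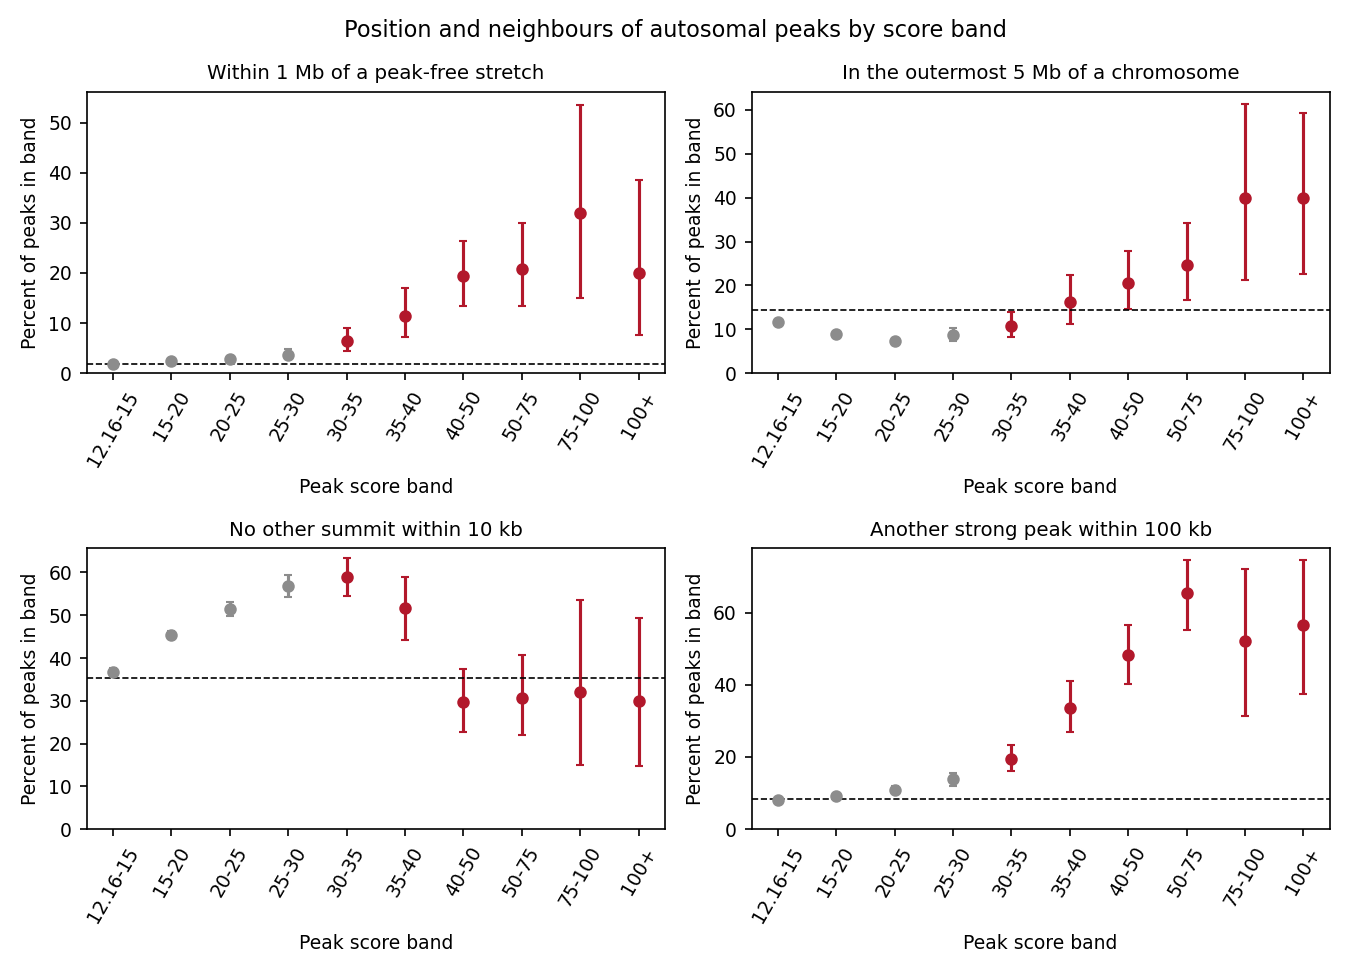
Percent of autosomal peaks within 1 Mb of a peak-free stretch, in the outermost 5 Mb, without another summit within 10 kb, and with another strong peak within 100 kb, by score band; grey points are comparison peaks, red points strong peaks, bars exact 95% intervals and dashed lines the value over all autosomal peaks. The solitary share peaks at 59.0% at 30 to 35 and is 29.7% at 40 to 50.

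Each strong peak was placed in 1 of 4 positions. The interior, more than 3 Mb from a stretch and more than 5 Mb from a chromosome end, held 630 strong peaks (62.9%, interval 59.8 to 65.9), against 83.8% of comparison peaks (83.3 to 84.2) and 80.03% of all autosomal peaks. Interior strong peaks had a median score of 33.6 and 78.9% were alone in their locus. The margins within 1 Mb of a stretch held 119 (median 41.6), the zone at 1 to 3 Mb held 89 (median 39.8, 40.4% alone) and the outermost 5 Mb held 164 (median 38.8, 64.6% alone). A score of 40 or more was reached by 19.7% of interior strong peaks (16.6 to 23.01), compared with 54.6% in the margins (45.2 to 63.8), 48.3% at 1 to 3 Mb (37.6 to 59.2) and 48.2% at the ends (40.3 to 56.1).

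Of all strong peaks, 497 (49.6%) were both interior and alone, with no other strong peak within 100 kb. The same held for 78.3% of comparison peaks (77.8 to 78.9) and 75.5% of all autosomal peaks. The 497 occurred on all 22 autosomes, most often on chromosome 3 with 51, chromosome 17 with 47 and chromosomes 1 and 8 with 44 each. Chromosomes 4, 13 and 18 had 3 each and chromosome 21 had 2. Their scores were low within the strong range, at a median of 33.01 and with 25% of them above 36.2, and only 17 reached 50. Among the 311 peaks of 40 or more, 61 were interior and alone (19.6%), against 436 of the 691 from 30 to 40 (63.1%).

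The strongest summit that was interior and alone, and the strongest of all, was at position 30647852 on chromosome 3 with a score of 281. It had 7 other summits within 100 kb, and the next score among these was 18.6. The next such summit lay on chromosome 1 at 236260505 and scored 209, with 20.5 as the next score within 100 kb. Another on chromosome 3, at 75718456, scored 154, beside a next score of 28.5. No further summit of this kind reached 100, and the next were 93.0 on chromosome 20 at 46523658, 78.1 on chromosome 8 at 128862110, 76.8 on chromosome 15 at 25773446, 72.9 on chromosome 1 at 155161431 and 68.3 on chromosome 17 at 76111881.

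The other strongest loci more than 3 Mb from a stretch lay mostly at chromosome ends. Chromosome 18 had 3 strong peaks between 12140 and 112274, of which the last scored 230 and the others 30.98 and 31.5. Chromosome 4 had 3 between 190943674 and 191033183, with 165 at the first and 32.4 and 34.9 after it. Chromosome 8 had a single strong peak of 179 at 145180767. Chromosome 5 had 170 at 178012663 with a second strong peak of 59.2, and chromosome 16 had 146 at 1075424 with a second of 57.4 and a single strong peak of 145 at 544893. The exception was chromosome 17, where 3 strong peaks at 41382216, 41399950 and 41466196 scored 177, 155 and 185, in the interior. In this locus all members were high, whereas in the others with several members 1 summit scored far above the rest.

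Beside stretches, the strongest locus was a single strong peak at 121485183 on chromosome 1, which scored 268 and was the last summit before the longest stretch. The only other summit within 100 kb of it scored 3.997. On chromosome 21 the summit at 9826050 scored 214, with a second strong peak of 36.4 at 9885965. A single strong peak of 134 lay at 61969159 on chromosome 7, and the first summit after the stretch of chromosome 19, at 27732058, scored 107 with 46.6 at 27738500. The locus on chromosome 2 from 90414179 to 90505299 differed in holding 6 strong peaks, with scores from 30.4 to 114. Of the 15 strong peaks that reached 150, 2 lay within 1 Mb of a stretch, 3 at 1 to 3 Mb, 4 in the outermost 5 Mb and 6 in the interior. Those at 1 to 3 Mb were the summit at 33294067 of chromosome 16, which scored 258, and a pair on chromosome 9, with 254 at 44992877 and 232 at 67791558.

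All 22 autosomes held strong peaks, in unequal shares. Chromosome 8 held 93, which is 17.8 per 1000 of its summits (exact interval 14.4 to 21.8), chromosome 21 held 17 or 16.2 per 1000 (9.49 to 25.9) and chromosome 9 held 77 or 14.7 per 1000 (11.6 to 18.3). The autosomes together had 9.78 per 1000 (9.19 to 10.4). At the low end were chromosome 13 with 6, or 3.13 per 1000 (1.15 to 6.80), chromosome 6 with 15, or 3.98 per 1000 (2.23 to 6.55), and chromosome 18 with 9, or 5.31 per 1000 (2.43 to 10.0). Chromosome 8 thus had 5.70 times the share of chromosome 13 (exact conditional interval 2.52 to 15.9). Per Mb of covered sequence, which is the span of the summits without the stretches, the extremes were chromosome 17 and chromosome 13, with a ratio of 18.6. Chromosomes were ranked before these extremes were taken, so the ratio is a description of the list. A549 has altered chromosome numbers, and copy number and binding cannot be told apart from a peak list.

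Chromosomes 8 and 21 reached a like share in different ways. On chromosome 8, 91 of 93 strong peaks lay more than 1 Mb from a stretch, in 67 loci, and its share there was 17.7 per 1000. On chromosome 21, 15 of 17 lay within 1 Mb of a stretch, and away from stretches its share was 2.21 per 1000, the lowest of the autosomes, from 2 peaks. Chromosome 22 went from 8.49 to 4.92 per 1000 and chromosome 15 from 8.61 to 6.47 when margins were left out. Chromosomes 9 and 17 changed little, from 14.7 to 13.4 and from 13.05 to 12.6.

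**Figure D5:**
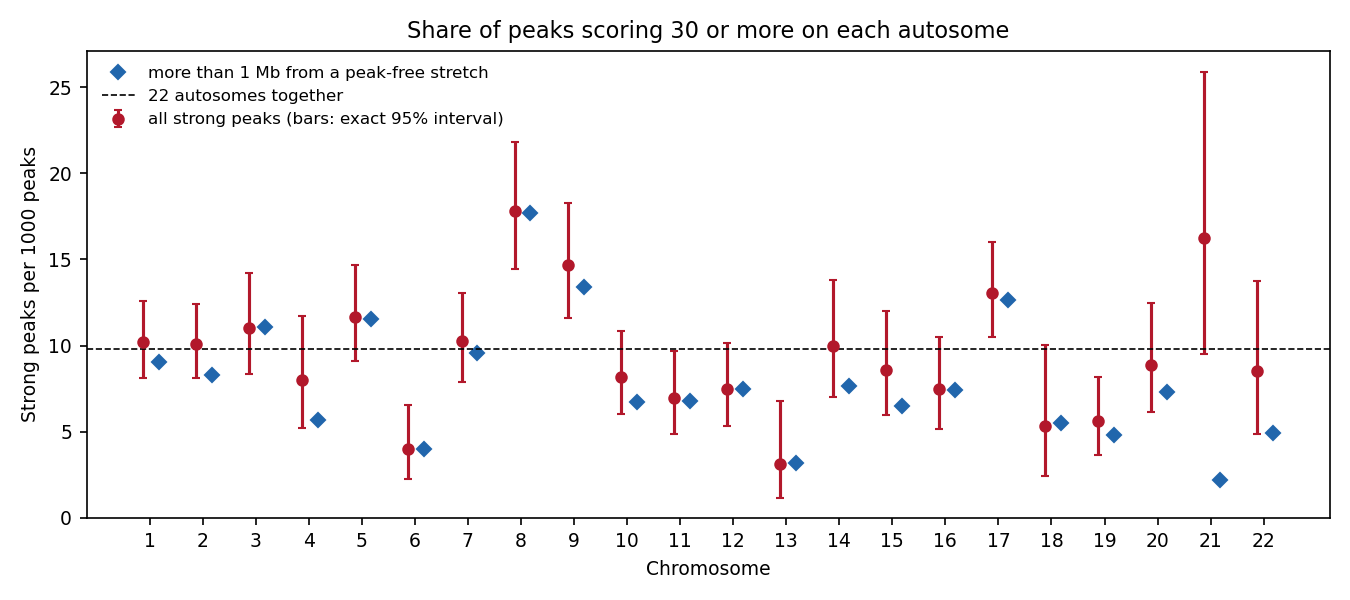
Strong peaks per 1000 summits on each autosome: red circles for all strong peaks with exact 95% intervals, blue diamonds for those more than 1 Mb from a peak-free stretch, and a dashed line for the autosomes together (9.78). Chromosome 8 stays at 17.7 without the margins, while chromosome 21 goes from 16.2 to 2.21.

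Grouping also differed by chromosome. The 58 strong peaks of chromosome 3 formed 57 loci, and the 35 of chromosome 11 formed 34. The 26 of chromosome 4 formed 13 loci, because 14 lay beyond 190 Mb near the end of the long arm and 8 beside the stretch. Relative to the comparison peaks, strong peaks were most frequent on chromosomes 21 and 22, with 8.59 and 8.04 per 100 peaks of either kind, against 3.95 over the autosomes. Chromosomes 13 and 6 had 1.47 and 1.77. On chromosome 22 only 183 of 1884 summits were comparison peaks, against 24341 of 102407 over the autosomes. Its share of strong peaks was 8.49 per 1000 summits (4.86 to 13.8), an interval that includes the 9.78 of the autosomes together. Set against protein-coding genes counted in a RefSeq table, chromosome 8 carried 13.01 strong peaks per 100 genes and chromosome 9 carried 9.90. Chromosome 6 carried 1.43, chromosome 13 carried 1.78 and the gene-rich chromosome 19 carried 1.79, compared with 5.24 over the autosomes. Comparison peaks differed in the same direction, with 199 per 100 genes on chromosome 8 and 163 on chromosome 9. They numbered 79.4 on chromosome 6, 119 on chromosome 13 and 61.6 on chromosome 19, against 127 over the autosomes.

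Strong peaks lay in bins with more summits than other bins, but the densest bins held no higher share of them. Of 2732 autosomal bins of 1 Mb with a summit, 630 held a strong peak and 67 held 3 or more. The median number of summits was 38 in bins with a strong peak and 24 in bins without, and a bin with more summits has more chances to hold a strong one. The 30 densest bins, with 4015 summits, held 30 strong peaks (0.747%, interval 0.505 to 1.06), an interval that includes the background of 0.978%, and 14 of these bins held none. The bins with most strong peaks were 39000001 to 40000000 on chromosome 17 with 17, 86000001 to 87000000 on chromosome 8 with 14, and 190000001 to 191000000 on chromosome 4 with 13. They held 120, 32 and 44 summits of any score.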

How the data were processed

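Per the file headers, the authors deposited 1 list of summits, each 1 bp wide, with a score, for the whole series. The header names no unit for the deposited score, and the score was used only to rank and filter. MACS, a peak caller, stands in the list's name. The aligner, the caller's version and threshold, and the part of the IgG reads in peak calling were not given in the sources used here. Per the submitters' processing notes, CASAVA 1.4 and the assemblies mm9 and GRCh38.p12 are named. On GRCh38 1093 nuclear summits lay past a chromosome end and on GRCh37 0, by the lengths in GenomeInfoDb 1.38.1, so positions are given 1-based in GRCh37. No annotation or sequence of that assembly was used, and the parts of the design that needed them were not run.

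Summits were joined at 100 kb or less by single linkage. Stretches were found from all summits, chromosome starts and ends included. Analyses ran in Python 3.11.15 with scipy 1.17.1, and the functions were tested on simulated lists with planted loci and stretches. Shares carry exact Clopper-Pearson 95% intervals. These treat summits as independent and cover counting error only, although neighbouring summits are not independent. With 1 library per antibody no test between groups was run. Gene counts per chromosome came from a RefSeq table of GRCh38.p14. Members, bands and position classes were chosen with earlier results of these data known. Named by rule were the 10 strongest loci more than 3 Mb from a stretch, the 5 strongest within 1 Mb of one, the 5 with most members, and the 3 highest and 3 lowest autosomes. Other positions were named by rank after their values were seen.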

Additional observations from a re-analysis of the deposited data

Results flagged for a closer look

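Summits outside the autosomes were not part of the comparisons. Chromosome X held 13 summits of score 30 or more among 2788 (0.466%, exact interval 0.249 to 0.796), against 0.978% of autosomal summits. They are listed because 13 is more than the 3 compatible with a count of 0, a listing rule and not a test. They formed 12 loci, none lay within 1 Mb of a peak-free stretch, and the strongest, at 77359564, scored 256. Chromosome Y also held 13, among 434 summits (3.00%, interval 1.60 to 5.07), and is listed for the same reason. Of these 11 lay within 1 Mb of a stretch, in a chromosome where 137 of the 434 summits did, and the strongest, at 13478298, scored 129. The autosomal share of 0.978% lay above the interval of chromosome X and below that of chromosome Y. No control list gives a further background for either count, and no explanation was tested.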

How the results depend on the processing

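Of 36 alternatives over 7 results, 10 stayed within the interval of the value, or for the number of loci within 1.5 times it, and 26 moved. Most of them change what is counted. The share more than 1 Mb from a stretch was 79.2% at 3 Mb, 75.6% at 5 Mb, 79.1% for scores of 40 or more, 93.0% for 25 or more and 92.6% counted as loci. It was 88.1% when stretches were found only from summits under 30, an alternative chosen after seeing the data. The 782 loci became 493 when joined within 1 Mb, 223 for scores of 40 or more and 1930 for 25 or more. The share alone in a locus was 73.8% within 50 kb, 59.0% within 200 kb, 56.3% for scores of 40 or more joined among themselves, 72.4% away from stretches and 70.7% without the 5 loci of most members. The share of strong summits around strong peaks was 9.77% within 50 kb, 6.29% within 200 kb, 7.35% away from stretches, 7.78% for scores of 40 or more around each other and 4.76% without the 5 loci of most members. The alternative without these 5 loci was chosen after seeing the data. The share without another summit was 79.9% within 5 kb, 22.8% within 20 kb, 30.2% for scores of 40 or more and 52.3% away from stretches. The share at chromosome ends was 11.6% in the outermost 2 Mb, 22.1% in 10 Mb and 25.4% for scores of 40 or more. The ratio of extreme autosomes was 18.6 per Mb of covered sequence, where chromosome 17 took the place of chromosome 8. The cause of these moves was not tested beyond what each alternative changes by construction. No replicate could be left out with 1 library per antibody, and the depth is unknown. No paired analysis was possible because each antibody has 1 library and the list has no column for either.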
